A study of Arabidopsis thaliana with 7 samples.

Results

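The NAC transcription factor family of Arabidopsis thaliana was examined in seedlings that expressed 35S:MYB106VP16 and in wild-type seedlings. Members were chosen by name, as genes with a RefSeq symbol or synonym of NAC or ANAC followed by 3 digits, upper or lower case, and AT1G69490 (NAP) and AT5G39610 (ORE1) were left out. This gave 98 genes, against 25347 genes with a probe on the array. Of the 98 members, 95 had at least 1 probe, and ANAC027, ANAC044 and ANAC048 had none. The naming rule uses no expression value, but it was proposed with earlier results of these data known.

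NAC proteins, named after NAM, ATAF and CUC, are plant-specific transcription factors with a conserved DNA-binding domain at one end and a variable regulatory region at the other. Members switch on the thick secondary walls of xylem vessels and fibres, set the boundaries between organs, shape the root cap and phloem, promote or delay leaf senescence and answer drought, wounding and mitochondrial stress. Some are made as inactive precursors held in a membrane and act in the nucleus once they are released from it.

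The transgenic plants carried 35S:MYB106VP16. Here MYB106, a MIXTA-like MYB factor of the epidermis, is joined to the activation domain VP16 under the 35S promoter of cauliflower mosaic virus, which is active in most tissues. There were 4 arrays of 35S:MYB106VP16 and 3 of wild type, all from whole seedlings of ecotype Columbia-0 at 3 weeks of age, grown on MS agar with 1% sucrose at 23 °C under 16 h of light and 8 h of dark. Several seedlings from a shared plate were pooled for each RNA extraction, and the labels do not say how many transgenic lines were used. No label says that replicates came from separate cultures, so the p-values cover the scatter among these arrays alone, and that scatter may be technical. All 35S:MYB106VP16 arrays lay on 1 slide with 1 scan and all wild-type arrays on another, so slide and genotype cannot be told apart.

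Signals are given as log2 values after division by each array's 75th percentile. That of MYB106 (AT3G01140) was 3.08, 3.29, 3.48 and 2.56 on the 35S:MYB106VP16 arrays, against -2.53, -2.86 and -2.41 on the wild-type arrays. Between 73.5% and 76.3% of probes were well above background on an array, and no spot was saturated. All 6 leaf markers and all 6 root markers were well above background on every array, with summed linear signals, in units of the array's 75th percentile, of 342 to 417 in 35S:MYB106VP16 and 402 to 437 in wild type for leaf, and of 4.35 to 6.39 in 35S:MYB106VP16 and 4.90 to 5.60 in wild type for root. Of 6 flower markers 5 were well above background on every array (sums of 1.52 to 2.57 in 35S:MYB106VP16 and 1.05 to 2.39 in wild type). No seed marker was well above background on every array, and OLEO2, AT2S3 and LEC2 were so on none.

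Of the 95 members with a probe, 77 were measured well enough to be tested (well above background on at least 3 of the 7 arrays), and 74 of these were so on all 7. Of the 18 others, 14 were well above background on no array. Among the 77, 20 were higher and 21 were lower in 35S:MYB106VP16 than in wild type by limma at an adjusted p under 0.05, and 36 were not called. The share called was 53.2%, beside 52.9% of all 20509 genes tested, and among all genes 28.1% were higher and 24.8% lower. The family was therefore called about as often as any gene, and its median log2 change of -0.003 lay beside 0.024 for all genes. At least 2-fold, 3 members were higher and 6 lower, against 5.77% higher and 4.72% lower of all genes. The arrays of the groups did not overlap for 47 members, against 57.6% of all genes. The scaling of the arrays moved these counts. With scaling by spike-in controls 3 members were higher and 49 lower, beside 6.07% higher and 64.4% lower of all genes. With the series table that the authors made, scaled by 1 constant per group, there were 24 higher and 12 lower, beside 35.6% and 11.1%, and with median scaling 24 were higher and 19 lower, beside 36.9% and 18.5%. The changes below are those relative to the 75th percentile, and a called member whose sign turned with spike-in scaling is marked as such. With that scaling the 3 members still called higher were ANAC047, ANAC016 and ANAC013. The WRKY factors, another large plant family, had 25 higher and 15 lower of 63 tested, with a median of 0.13, and the MYB factors 19 higher and 33 lower of 95, with a median of -0.03. Differences between the families were not tested.

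**Figure D1:**
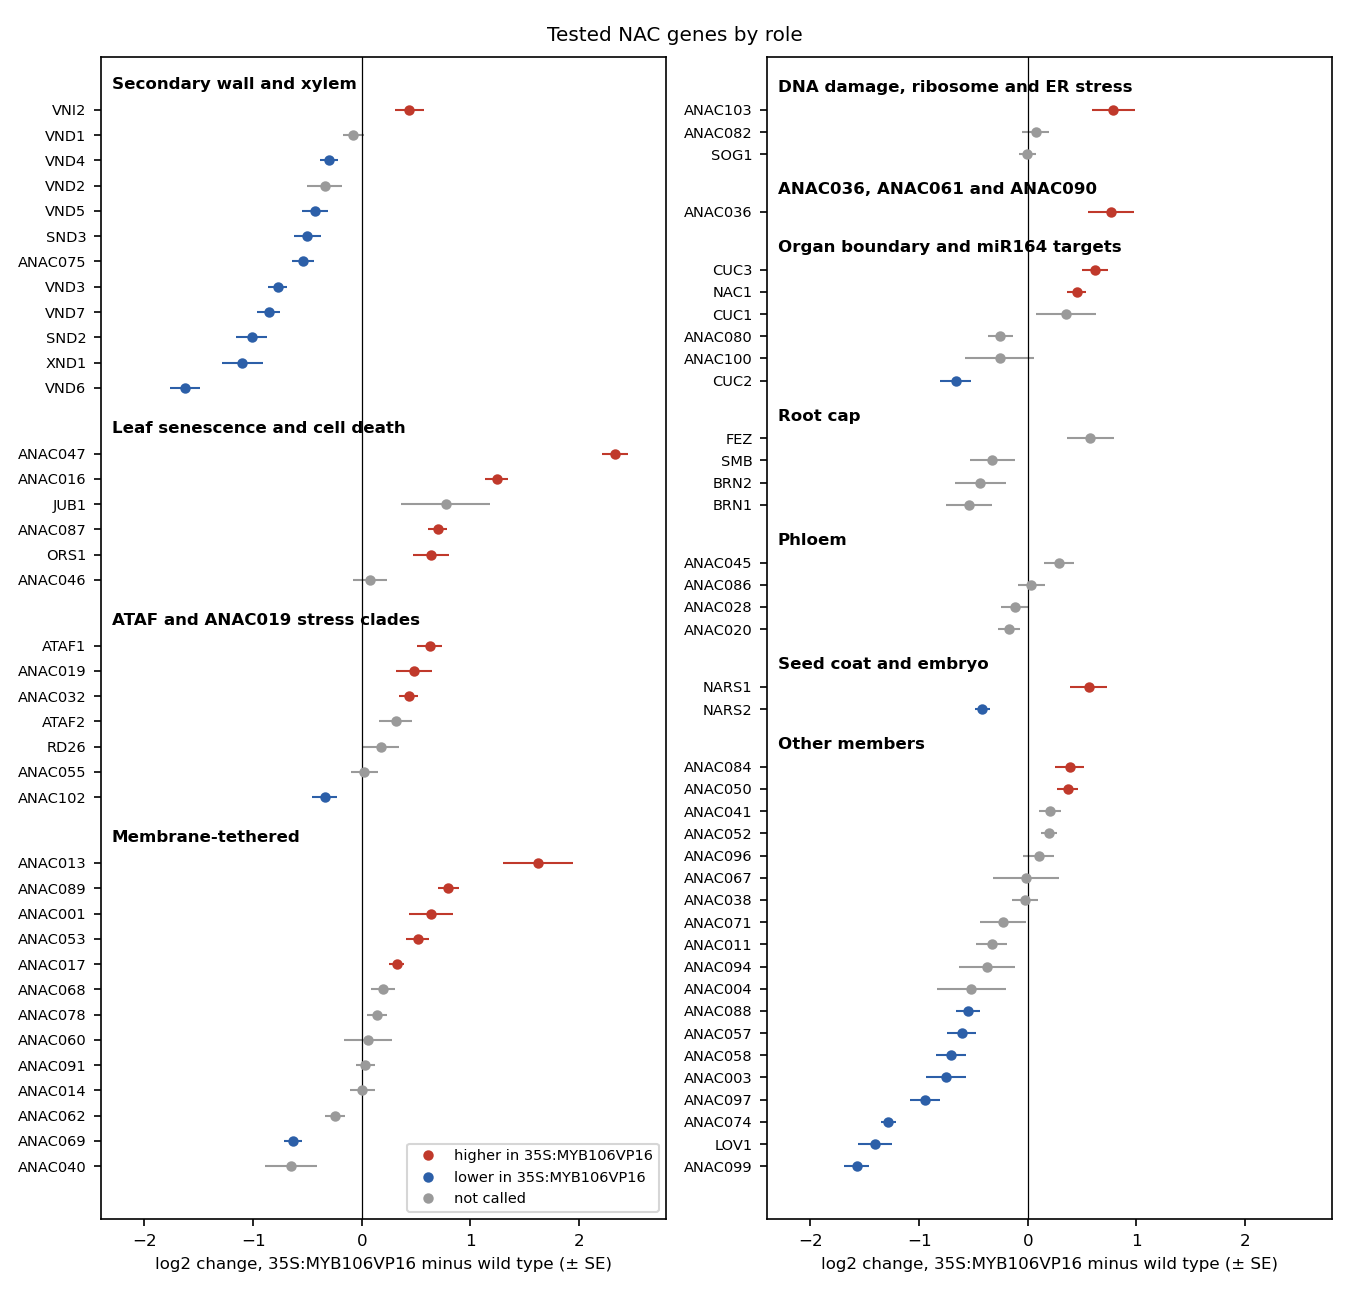
Log2 change in signal, 35S:MYB106VP16 minus wild type, of the 77 tested NAC genes grouped by role, with the standard error of the limma estimate as the bar (4 and 3 arrays). Of the 12 xylem and secondary wall factors, 11 lie left of 0, while the 6 senescence factors all lie right of 0, and the family spans -1.63 to 2.33; with spike-in scaling, VNI2 and ANAC046 among these 18 turned below 0.

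The NAC factors of xylem and secondary walls were mostly lower in 35S:MYB106VP16. Of 15 such genes 12 were tested, and 9 fell and 1 rose, where 24.8% of all genes were lower and 28.1% higher. The other 2 were not called, and the median log2 change was -0.52. With spike-in scaling all tested factors but VNI2 were called lower, where 64.4% of all genes were. In whole seedlings, fewer cells of a type and less RNA per cell cannot be told apart. VND6 (AT5G62380), a master switch of metaxylem vessel formation, fell most (-0.833 with normexp background correction, where SND2 was at -0.845). Its relative log2 signal was -5.64, -5.65, -5.52 and -6.10 on the 35S:MYB106VP16 arrays, against -4.15, -4.08 and -4.08 on the wild-type arrays. Each 35S:MYB106VP16 array lay well below each wild-type array (log2 change -1.63 ± 0.14 SE; limma adjusted p = 0.000221). VND7 (AT1G71930), the switch of protoxylem vessels, had signals of -4.60, -4.65, -4.61 and -4.31 in 35S:MYB106VP16 and -3.57, -3.78 and -3.71 in wild type (log2 change -0.86 ± 0.10 SE; limma adjusted p = 0.000677).

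XND1 (AT5G64530), a negative regulator of xylem differentiation, fell as well. Its signals were -5.90, -5.95, -6.27 and -5.42 in 35S:MYB106VP16 and -4.67, -4.73 and -4.95 in wild type (log2 change -1.10 ± 0.19 SE; limma adjusted p = 0.00269; -0.48 with normexp background correction). SND2 (AT4G28500), a regulator of fibre wall thickening, had signals of -3.46, -3.30, -3.64 and -3.01 in 35S:MYB106VP16 and -2.31, -2.41 and -2.29 in wild type (log2 change -1.01 ± 0.14 SE; limma adjusted p = 0.00127). For both genes the groups lay apart, and the 35S:MYB106VP16 arrays varied more among themselves than those of wild type.

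The other vessel factors changed less than VND6 and VND7, though with normexp background correction VND3 was at -0.604 and VND7 at -0.495. VND3, VND5 and VND4 fell, with log2 changes of -0.77, -0.43 and -0.30, as did SND3 (-0.50) and ANAC075 (-0.54). The call of VND4 was lost without wild type replicate 1 or 3 and with quantile or median scaling or the series table. That of VND5 was lost without wild type replicate 1 and with normexp background correction or the series table. VND1 and VND2 were not called, at -0.08 and -0.34. The only member of the group that rose was VNI2 (AT5G13180), known as a partner of VND7 that represses its targets, at signals of 2.58, 2.87, 2.59 and 2.67 in 35S:MYB106VP16 and 2.53, 2.17 and 2.03 in wild type (log2 change 0.44 ± 0.13 SE; limma adjusted p = 0.0285; -0.13 with spike-in scaling). Its call was lost without 35S:MYB106VP16 replicate 2 or 4 or wild type replicate 2 or 3. The same held with normexp background correction, quantile scaling or a replicate block. NST1, NST2 and NST3, the switches of fibre and anther walls, were not well enough above background to be tested. Scaled by the constants of the authors' series table, 5 of the 12 factors fell (VND3, VND6, VND7, SND2 and XND1), where 11.1% of all genes did, and without wild type replicate 1 the count was 7.

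Most genes that these factors control were lower as well. Of 26 secondary wall and xylem genes from a list of known downstream genes, all tested, 18 fell and 3 rose. Of all genes 24.8% were lower and 28.1% higher. The other 5 of the list were not called, and its median log2 change was -0.57. MYB103, a MYB regulator of secondary walls, had signals of -7.05, -6.91, -6.86 and -6.45 in 35S:MYB106VP16 and -4.85, -5.12 and -4.96 in wild type (log2 change -1.84 ± 0.15 SE; limma adjusted p = 0.000202; -0.70 with normexp background correction). MYB54 fell by 1.01 on the log2 scale and XCP1, a cysteine protease of dying vessel cells, by 1.00. The secondary wall cellulose synthases CESA4, CESA7 and CESA8 had log2 changes of -0.71, -0.31 and -0.58. Of the 3 that rose, FRA8, a xylan synthesis enzyme, did so by 1.55, and KNAT7 and MYB52 by 0.80 and 0.45, the last of which was -0.12 with spike-in scaling. Scaled by the series table's constants, 11 of the 26 fell, where 11.1% of all genes did. With spike-in scaling FRA8 was called higher, KNAT7 and MYB52 were not called and the rest were lower, where 64.4% of all genes were. Of the 6 root markers, PRP3, EXPA7 and COBL9 were higher in the same plants (2.06, 1.02 and 0.88), SHR was lower (-0.48), and SCR (-0.18) and PHT1;1 (0.08) were not called. The summed root level overlapped between the groups (4.35 to 6.39 in 35S:MYB106VP16 and 4.90 to 5.60 in wild type). This linear sum rests mostly on PHT1;1, SCR and SHR, with mean log2 signals of 1.15, 0.46 and -0.195 in 35S:MYB106VP16. It says little about PRP3, EXPA7 and COBL9, which had means of -4.09, -1.705 and -1.40 there. The part of tissue proportions in these counts was not tested.

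**Figure D2:**
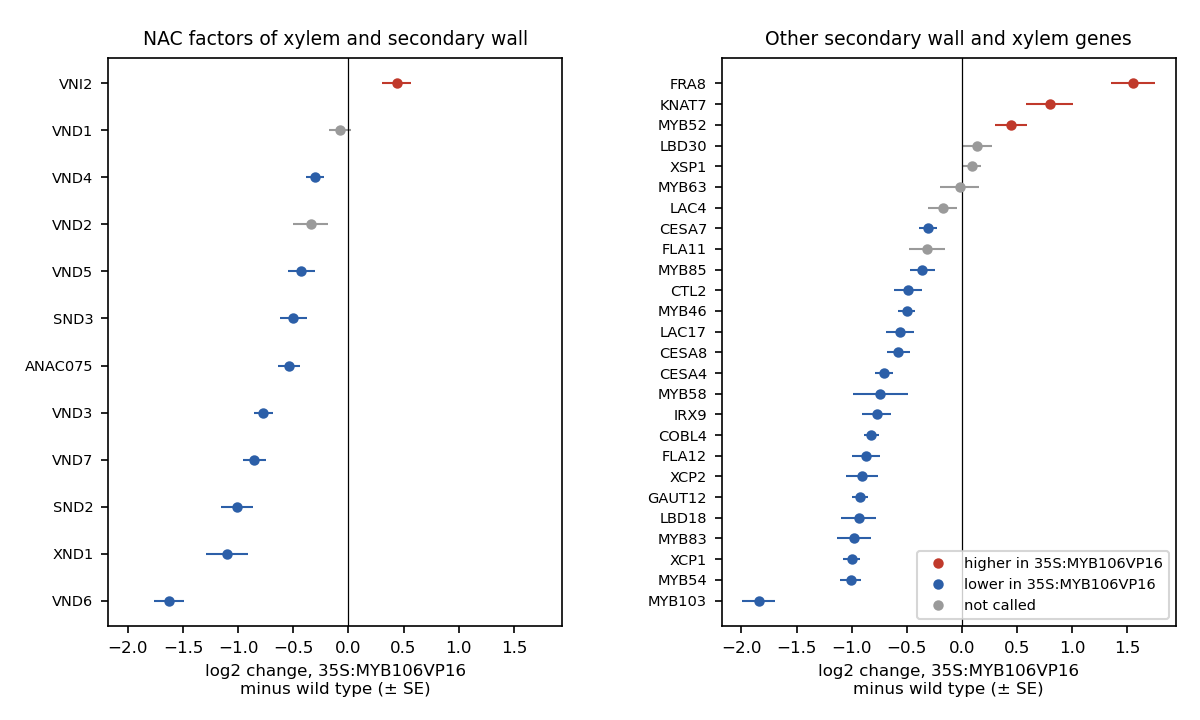
Log2 change, 35S:MYB106VP16 minus wild type, with its standard error, of the 12 tested NAC factors of xylem and secondary walls (left) and of 26 other secondary wall and xylem genes (right). Blue points, called lower, make up 9 of the 12 and 18 of the 26, where 24.8% of all genes were lower. VND6 and MYB103 stand lowest.

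Several NAC factors act in the programmed death of root cap and xylem cells. The 4 root cap factors, which control stem cell division and maturation there, were not called, and at an unadjusted p under 0.05 1 was higher and 1 lower. FEZ had a log2 change of 0.57 ± 0.22 SE (limma adjusted p = 0.0584), while SMB, BRN2 and BRN1 had -0.33, -0.44 and -0.54. On the 35S:MYB106VP16 arrays, replicates 2 and 4 were above replicates 1 and 3 for each of these 4 genes. Without 35S:MYB106VP16 replicate 4, BRN1 and BRN2 were called lower (log2 changes of -0.72 and -0.65), and without its replicate 1 or 3 FEZ was called higher. With spike-in scaling 3 were called lower, and with normexp background correction 2 were lower and 1 higher. Of 7 genes of developmental cell death, 6 fell and 1, at 0.01, was not called, where 24.8% of all genes were lower. With spike-in scaling each of them was called lower, where 64.4% of all genes were. The median as reported was -0.54. The ribonuclease gene RNS3 had a log2 change of -0.79, AT4G04460 of -0.67, the metacaspase gene MC9 of -0.59 and the nuclease gene BFN1 of -0.54. Scaled by the series table's constants 2 of the 7 fell, and without wild type replicate 2 the number was 4.

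Of the 6 senescence factors, all tested, 4 rose and 2 were not called, where 28.1% of all genes were higher. The median log2 change was 0.74. With spike-in scaling 2 were called higher and 1 lower, beside 6.07% and 64.4% of all genes. ANAC047 (AT3G04070), which drives upward bending of petioles in waterlogged plants and is active in senescence, rose most in the whole family. Its signals were 0.11, 0.06, 0.41 and 0.44 in 35S:MYB106VP16 and -2.16, -1.94 and -2.11 in wild type. The gap between the groups was far wider than the spread within either (log2 change 2.33 ± 0.12 SE; limma adjusted p = 6.44e-05), and a second probe gave 1.43.

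ANAC016 (AT1G34180), which promotes senescence and chlorophyll loss, had signals of -2.92, -3.0, -2.82 and -2.93 in 35S:MYB106VP16 and -4.25, -3.92 and -4.30 in wild type (log2 change 1.24 ± 0.11 SE; limma adjusted p = 0.00023; 0.79 with normexp background correction). ANAC087 rose by 0.70, and ORS1, a promoter of senescence, by 0.64 on the log2 scale, a call that was lost without wild type replicate 1 or 3. JUB1 (AT2G43000), a factor that delays senescence, was not called. Its signals were -5.34, -5.08, -5.16 and -3.56 in 35S:MYB106VP16 and -5.45, -5.66 and -5.57 in wild type. Replicate 4 stood apart from the other 3 (log2 change 0.77 ± 0.41 SE; limma adjusted p = 0.148), and without it the change was 0.36 and passed the test. ANAC046 was at 0.07, or -0.49 with spike-in scaling, and not called.

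**Figure D3:**
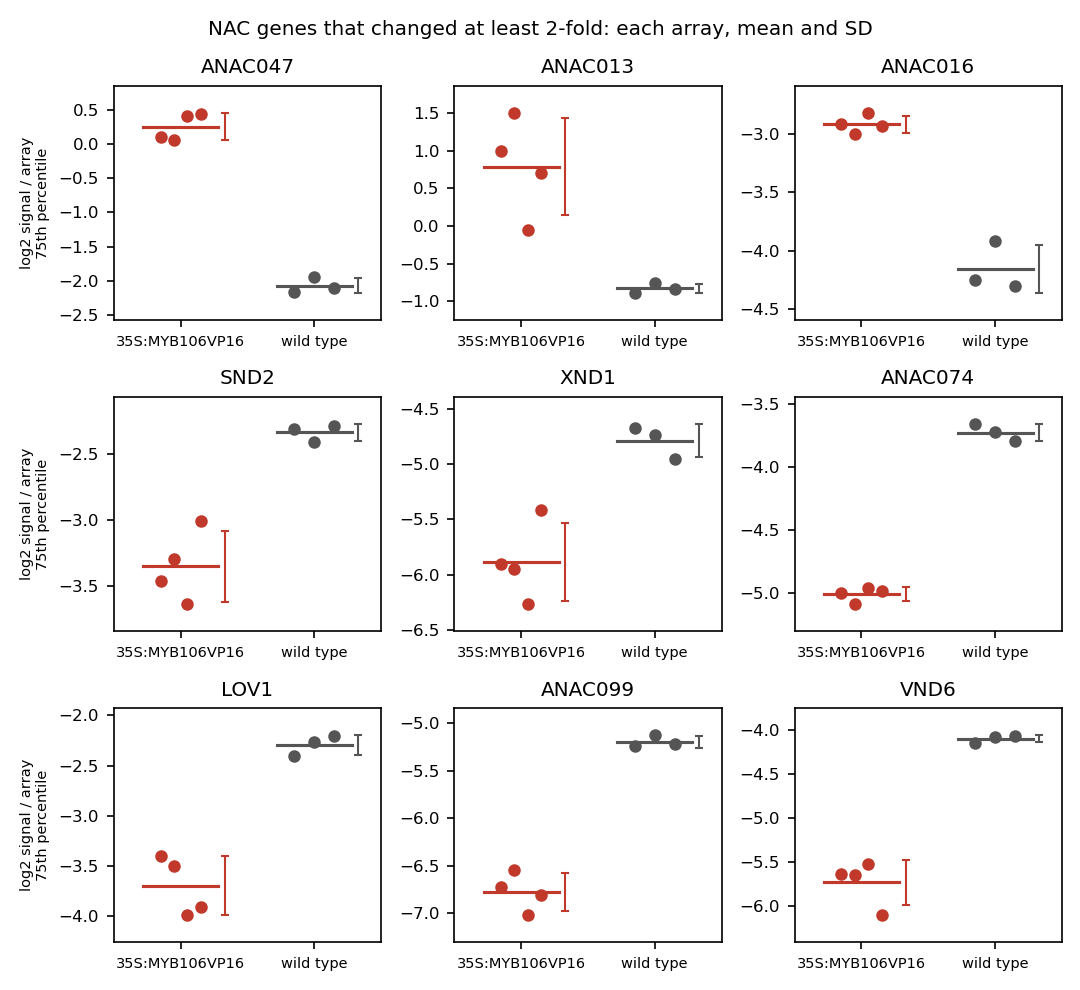
Log2 signal over the 75th percentile of its array for the 9 NAC genes that changed at least 2-fold, with each array as a point (4 of 35S:MYB106VP16 at left, 3 of wild type at right), the mean as a line and the SD as a bar. In every panel all 35S:MYB106VP16 points lie on one side of all wild-type points, and for ANAC013 the lowest 35S:MYB106VP16 array lies at -0.05.

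Among 13 membrane-tethered factors, all tested, 5 rose, 1 fell and 7 were not called. This is 46.2% called, below the 52.9% of all genes, with a median log2 change of 0.14. With spike-in scaling 1 was called higher and 7 lower, where 64.4% of all genes were lower. ANAC013 (AT1G32870), which carries signals of mitochondrial dysfunction to the nucleus, had signals of 0.99, 1.5, -0.05 and 0.71 in 35S:MYB106VP16 and -0.89, -0.76 and -0.84 in wild type. The 35S:MYB106VP16 arrays were spread widely, with replicate 3 lowest, and yet all lay above wild type (log2 change 1.62 ± 0.32 SE; limma adjusted p = 0.00478). ANAC089, an ER membrane factor of sugar and stress responses, had signals of 0.96, 0.90, 0.90 and 1.21 in 35S:MYB106VP16 and 0.16, 0.17 and 0.25 in wild type (log2 change 0.80 ± 0.09 SE; limma adjusted p = 0.000594). ANAC001 and ANAC053, the last a regulator of proteasome genes under stress, rose by 0.64 and 0.51, and ANAC053 was at -0.05 with spike-in scaling. The call of ANAC001 was lost under 6 of the 16 alternatives, among them leaving out 35S:MYB106VP16 replicate 1 or 3 or wild type replicate 1 or 3.

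ANAC017, the other known carrier of mitochondrial signals, rose by 0.32 on its brighter probe (-0.24 with spike-in scaling), but its other probe gave -0.59, which passed the test in the opposite direction. The direction for this gene is therefore uncertain. ANAC069 fell by 0.63 on the log2 scale. ANAC040, a regulator of salt response in germination, had a log2 change of -0.65 ± 0.24 SE (limma adjusted p = 0.0501), just above the threshold of 0.05, and ANAC062 of -0.25 ± 0.09 SE (limma adjusted p = 0.0595).

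Genes that ANAC013 and ANAC017 are known to switch on under mitochondrial stress were higher in the same plants. Of 11 tested, NDB4 passed the filter through the 35S:MYB106VP16 arrays alone. Of the other 10, 8 rose and 2 were not called, with a median log2 change of 1.30, and 7 rose at least 2-fold. Of all genes 28.1% were higher, and 5.77% were so by at least 2-fold. UGT74E2, a glucosyltransferase of an auxin precursor, had signals of 1.38, 2.08, 0.15 and 1.43 in 35S:MYB106VP16 and -1.48, -0.61 and -1.35 in wild type (log2 change 2.41 ± 0.44 SE; limma adjusted p = 0.00335). OM66, an outer mitochondrial membrane protein, rose by 2.31 and the sulfotransferase gene SOT12 by 1.95. NDB4, an alternative NADH dehydrogenase, had signals of -5.07, -4.49, -8.21 and -6.25 in 35S:MYB106VP16 and -7.79, -9.66 and -7.83 in wild type, where no array was well above background, and was not called (limma adjusted p = 0.0563).

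AOX1A, the alternative oxidase commonly read as the marker of this response and picked here after its values were seen, had signals of 3.30, 3.72, 2.14 and 3.25 in 35S:MYB106VP16 and 1.68, 1.73 and 1.65 in wild type (log2 change 1.42 ± 0.34 SE; limma adjusted p = 0.01). Replicate 3 was the lowest 35S:MYB106VP16 array for 10 of the 11 genes, as it was for ANAC013. With spike-in scaling 6 of the 11 genes were called higher, where 6.07% of all genes were.

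**Figure D4:**
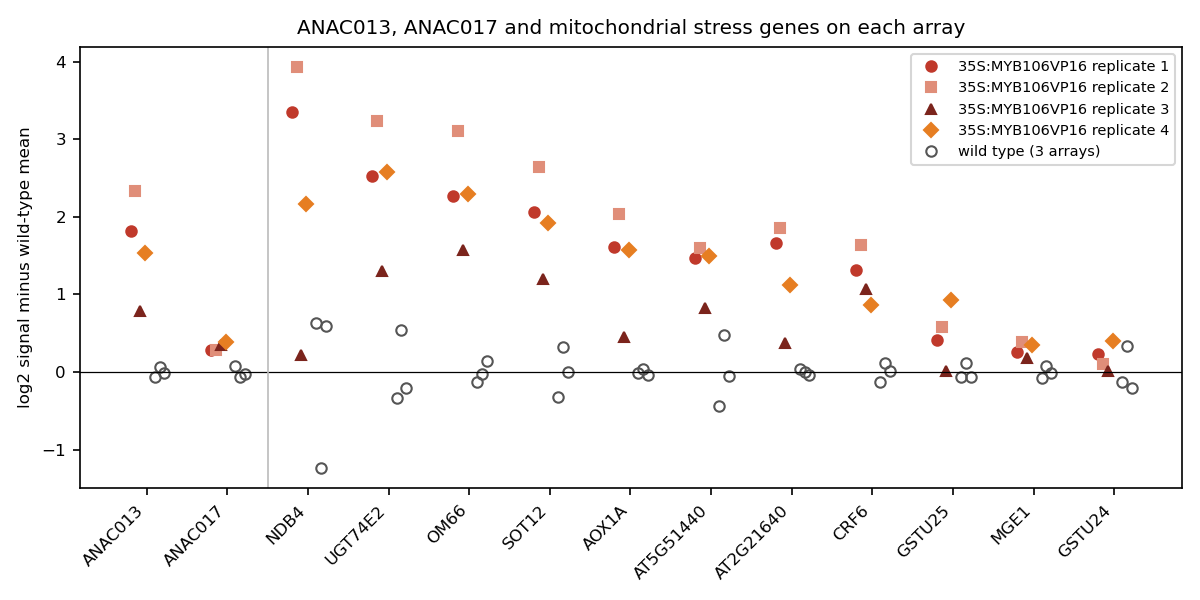
Log2 signal minus the wild-type mean for ANAC013, ANAC017 and 11 mitochondrial stress genes, with a marker for each 35S:MYB106VP16 replicate at left and open circles for the 3 wild-type arrays at right of each position. Replicate 3 (triangles) is the lowest 35S:MYB106VP16 array for ANAC013 and for 10 of the 11 genes, and lies above all wild-type arrays for ANAC013, UGT74E2, OM66, SOT12 and AOX1A.

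The ATAF and ANAC019 clades respond to drought, wounding and abscisic acid. Of 7 members, all tested, 3 rose, 1 fell and 3 were not called. This is 57.1% called, near the 52.9% of all genes, with a median log2 change of 0.31. With spike-in scaling 2 were called lower, where 64.4% of all genes were. ATAF1 had signals of 2.11, 2.35, 2.20 and 2.21 in 35S:MYB106VP16 and 1.49, 1.86 and 1.44 in wild type (log2 change 0.62 ± 0.12 SE; limma adjusted p = 0.00397), and its other probes gave 0.53 each. ANAC019 rose by 0.48 and ANAC032 by 0.43, and both were below 0 with spike-in scaling (-0.08 and -0.13). ANAC019 had signals of 0.66, 0.84, 0.70 and 1.28 in 35S:MYB106VP16 and 0.60, 0.27 and 0.31 in wild type, so the groups nearly met, and its call was lost without 35S:MYB106VP16 replicate 2 or wild type replicate 2 or 3. The same held with normexp background correction, a replicate block or no filter on dim probes. ANAC102, a factor of low-oxygen responses in germinating seeds, had a log2 change of -0.34 and lost its call under 9 of the alternatives, among them the series table's constants and leaving out 35S:MYB106VP16 replicate 1, 2 or 3 or wild type replicate 2 or 3. ATAF2 (0.31, with the spot of wild type replicate 2 removed as an outlier), RD26 (0.17) and ANAC055 (0.03) were not called, and with spike-in scaling they were at -0.26, -0.39 and -0.54.

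Reported targets of the ANAC019, ANAC055 and RD26 clade changed in both directions. Of 11 tested, 6 rose and 2 fell, where 28.1% of all genes were higher and 24.8% lower. The median was 0.61, and with spike-in scaling 2 were higher and 5 lower, beside 6.07% and 64.4% of all genes. GLYI7, a glyoxalase family gene, had signals of 2.81, 3.13, 3.35 and 3.11 in 35S:MYB106VP16 and -0.78, -0.64 and -1.15 in wild type (log2 change 3.96 ± 0.16 SE; limma adjusted p = 2.74e-05). NYE2, which acts in chlorophyll breakdown, rose by 1.59 and ERD1, a chloroplast protease regulator, by 0.83. NCED3, a key enzyme of abscisic acid synthesis under drought, had signals of -3.60, -3.43, -4.92 and -3.71 in 35S:MYB106VP16 and -2.69, -3.05 and -2.45 in wild type (log2 change -1.19 ± 0.36 SE; limma adjusted p = 0.0257). Its call was lost with the series table's constants (limma adjusted p = 0.0676).

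The organ boundary factors and their relatives under control of miR164 were called in 3 of 6 cases, where 52.9% of all genes were. Of the 6 tested, 2 rose, 1 fell and 3 were not called, and with spike-in scaling 3 were called lower, where 64.4% of all genes were. CUC3, which sets boundaries without control by miR164, had signals of -4.88, -5.18, -5.04 and -5.03 in 35S:MYB106VP16 and -5.42, -5.83 and -5.72 in wild type (log2 change 0.62 ± 0.12 SE; limma adjusted p = 0.00408). CUC2, its partner in boundary formation, had signals of -5.49, -5.56, -5.91 and -5.45 in 35S:MYB106VP16 and -4.71, -5.09 and -5.02 in wild type (log2 change -0.66 ± 0.14 SE; limma adjusted p = 0.00672). Both pairs of groups were apart. NAC1, a factor of lateral root formation, rose by 0.45 (-0.12 with spike-in scaling), and CUC1 was at 0.35 (-0.21 with spike-in scaling) and not called. ANAC080 was not called on its brightest probe at -0.25, while its other probes gave -0.40 and -1.37. The probe at -0.40 passed the test (limma adjusted p = 0.0191). The call of CUC2 was lost with normexp background correction and with the series table's constants.

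Around the CUC factors, 4 of 11 tested boundary and meristem genes rose, 3 fell and 4 were not called. Of all genes 28.1% were higher and 24.8% lower. The median was 0.24, and with spike-in scaling 5 were called lower, where 64.4% of all genes were. LOB, which marks organ boundaries, rose by 0.90. KNAT6, KNAT2 and BLH9 rose by 0.71, 0.695 and 0.465, and BLH9 was at -0.10 with spike-in scaling. TCP3, a repressor of CUC genes and a target of miR319, fell by 1.36, TCP10 of the same class fell by 0.87 and LOF1 fell by 0.72 on the log2 scale. TCP4, a further TCP gene of the list, was at 0.26 and not called. It was called higher with median scaling or the series table, and was at -0.305 with spike-in scaling.

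**Figure D5:**
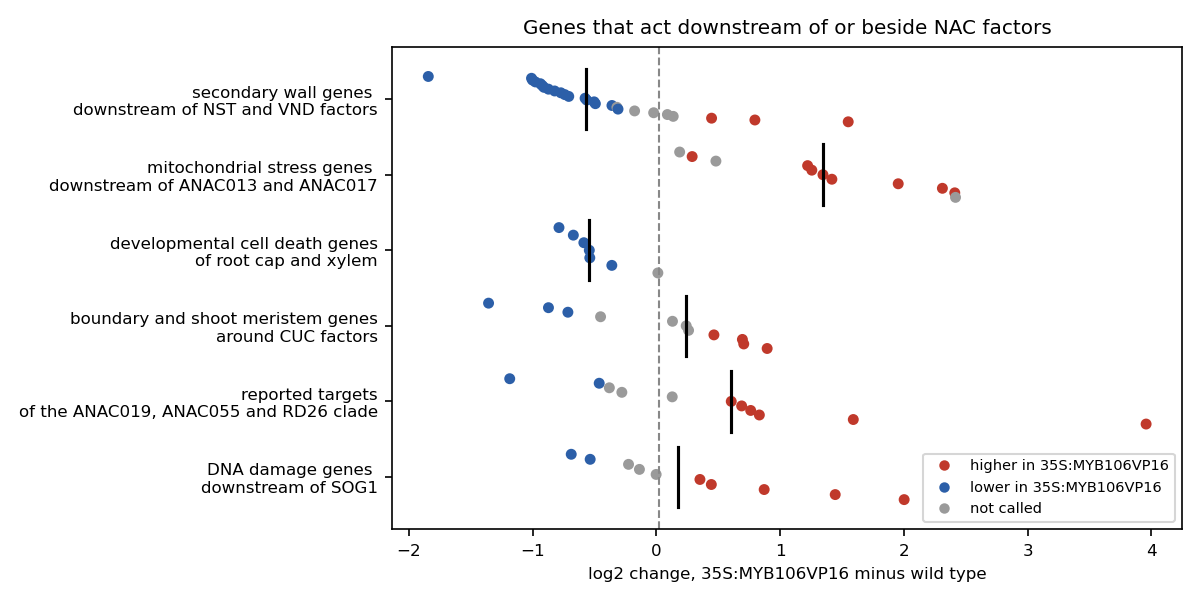
Log2 change, 35S:MYB106VP16 minus wild type, of each tested gene in 6 lists of genes that act downstream of or beside NAC factors, with the list's median as a black bar and the median of all genes, 0.024, as a dashed line. The secondary wall and cell death lists have medians of -0.57 and -0.54, and the mitochondrial stress list has one of 1.35 (1.30 without NDB4).

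Among the remaining role groups, ANAC103, a target of SOG1 and of the ER stress response, rose. Its signals were -3.44, -4.17, -4.16 and -4.26 in 35S:MYB106VP16 and -4.71, -4.84 and -4.84 in wild type, so that replicate 1 stood above the other 3 (log2 change 0.79 ± 0.20 SE; limma adjusted p = 0.0122). SOG1, the master factor of the plant DNA damage response, was not called at -0.003, nor was ANAC082 at 0.07 (-0.49 with spike-in scaling). Of 10 tested DNA damage genes downstream of SOG1, 5 rose, 2 fell and 3 were not called, where 28.1% of all genes were higher and 24.8% lower. With spike-in scaling 2 were higher and 5 lower, beside 6.07% and 64.4% of all genes. The cell cycle inhibitor gene SMR7 rose by 2.0, GMI1 by 1.45 and PARP2 by 0.87, while WEE1, a checkpoint kinase gene, fell by 0.69 on the log2 scale. The signals of SMR7 were -1.94, -2.53, -1.98 and -1.84 in 35S:MYB106VP16 and -3.87, -4.05 and -4.30 in wild type, with no overlap.

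The 4 phloem factors, which guide sieve element differentiation, were not called by limma, nor was any at an unadjusted p under 0.05, and they lay between -0.17 (ANAC020) and 0.29 (ANAC045), with ANAC028 at -0.12. Without 35S:MYB106VP16 replicate 4 ANAC020 was called lower, with median scaling ANAC045 was called higher, and with spike-in scaling 3 were called lower and ANAC045 was at -0.28. ANAC036, whose overexpression dwarfs plants, rose by 0.76, and its relatives ANAC061 and ANAC090 could not be tested. The call of ANAC036 was lost without wild type replicate 2, with a replicate block and with spike-in scaling (0.20). The seed coat factors moved apart. NARS1 had signals of -0.04, 0.06, 0.58 and 0.03 in 35S:MYB106VP16 and -0.65, -0.23 and -0.32 in wild type (log2 change 0.56 ± 0.17 SE; limma adjusted p = 0.028; -0.006 with spike-in scaling), and its call was lost without wild type replicate 1 or 3. NARS2 had signals of -0.31, -0.35, -0.36 and -0.49 in 35S:MYB106VP16 and 0.07, 0.02 and 0.03 in wild type (log2 change -0.42 ± 0.07 SE; limma adjusted p = 0.00232).

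Of the 32 members placed in no role group 19 were tested, and 2 rose, 8 fell and 9 were not called. This is 52.6% called, beside 52.9% of all genes. Without wild type replicate 2 or 3 both rises lost their call, 4 were higher with median scaling or the series table, and 16 were lower with spike-in scaling. The median log2 change was -0.38. ANAC099 (AT5G56620) had signals of -6.72, -6.54, -7.02 and -6.81 in 35S:MYB106VP16 and -5.25, -5.13 and -5.22 in wild type (log2 change -1.57 ± 0.12 SE; limma adjusted p = 0.000147; -0.52 with normexp background correction). LOV1 (AT2G02450), a factor of flowering time and cold response, had signals of -3.40, -3.50, -3.99 and -3.91 in 35S:MYB106VP16 and -2.4, -2.27 and -2.21 in wild type (log2 change -1.41 ± 0.16 SE; limma adjusted p = 0.000521). ANAC074 (AT4G28530), which promotes cell death in the stigma, had signals of -5.00, -5.09, -4.96 and -4.99 in 35S:MYB106VP16 and -3.66, -3.72 and -3.79 in wild type. Its standard error was the smallest of the 3 (log2 change -1.28 ± 0.07 SE; limma adjusted p = 6.65e-05; -0.81 with normexp background correction).

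In the same set ANAC097, ANAC003, ANAC058, ANAC057 and ANAC088 fell, with log2 changes of -0.95, -0.75, -0.71, -0.61 and -0.55. ANAC084 and ANAC050, the last a repressor that works with a histone demethylase, rose by 0.38 and 0.37, and both were below 0 with spike-in scaling (-0.18 and -0.20). The call of ANAC084 was also lost without 35S:MYB106VP16 replicate 1 or wild type replicate 1 and with no filter on dim probes. With a replicate block ANAC084 and ANAC050 both lost their calls.

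In the RefSeq table of assembly TAIR10.1, 11 pairs of members are direct neighbours, and in 8 pairs both genes were tested. ANAC047, the strongest rise, lies beside ANAC046, which was not called, with log2 changes of 2.33 and 0.07. NARS2 and ANAC019 are neighbours called in opposite directions, at -0.42 and 0.48. ANAC016 and ANAC017 are neighbours that both rose on their brightest probes, at 1.24 and 0.32. ANAC069 fell beside ANAC068, which was not called at 0.19 (-0.37 with spike-in scaling).

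Of 21 members with several measured probes, 18 gave the same sign on all of them. ANAC017, ATAF2 and ANAC091 did not, and ANAC017 alone was called in opposite directions. For some members not called on their brightest probe, a second probe passed the test. These were ANAC014 (0.37; limma adjusted p = 0.0203), ANAC080 (-0.40; limma adjusted p = 0.0191) and ANAC091 (-0.605; limma adjusted p = 0.0198). Second probes of ANAC038, ANAC041, ANAC078 and ATAF2 did not pass. Whether probes also bind transcripts of close relatives was not tested, since probe sequences were not used here.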

How the data were processed

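Total RNA (1 µg per sample) was labelled with Cy3 and measured on 7 single-colour Agilent arrays, 4 of 35S:MYB106VP16 and 3 of wild type. Per the file headers, the authors' spot intensity came from Agilent Feature Extraction 9.1.3.1, also named in the submitters' processing notes, with background subtraction, spatial detrending and 2 merged scans of each array. The deposited series table holds the same intensity values divided by 1 constant per group, with no log and no centring, and column medians of 0.331 to 0.438. The origin of those constants is not stated in the sources used here.

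Here outlier and control spots were removed, replicate spots were averaged, and the authors' processed signal was put on a log2 scale minus the array's 75th percentile (2213 to 2858). Of 36022 probes with a RefSeq accession, 34185 matched a gene of RefSeq's TAIR10.1 table by unversioned accession. No coordinates are printed, because the files name no build. Each gene took the values of its brightest probe, by the mean of the 7 arrays. Genes well above background on at least 3 arrays entered a linear model over the whole table in limma 3.58.1 (functions lmFit and eBayes; R version 4.3.3), with a term for genotype alone and a Benjamini-Hochberg threshold of 0.05. The number of arrays limits the precision. On simulated arrays with 20448 genes, 50 each were changed 1.25-, 1.5-, 2- and 4-fold. The comparison recovered 4%, 42%, 80% and 92% of these, with 2 false calls, and no slide effect was simulated. Far fewer genes were changed there than the 52.9% called on the real arrays. Recovery at that share was not tested, nor was the number of false calls.

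The members, role groups and pathway lists were chosen with earlier results of these data known. Named with values are MYB106, the members called at least 2-fold, the 3 tested members of each role group and the 4 tested genes of each pathway list with the largest absolute change, and the other called members. Other genes given with values (such as the CESA genes, KNAT7, MYB52, AOX1A, root markers and further members that were not called) were picked after their values were seen. Alternatives were normexp background correction (offset 50), quantile, median and spike-in scaling, the series table, other filters on dim probes, the mean over probes, a replicate block and leaving out each array. The slide could not be fitted as a block, since each slide held 1 genotype.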

Additional observations from a re-analysis of the deposited data

Results flagged for a closer look

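In 9 of the 77 tested members 1 of the 4 35S:MYB106VP16 arrays stood far from the other 3 by Dixon's criterion, which flags about 1 in 20 groups by chance. Replicate 4 was that array in 5 of the 9. Its log2 signal, after division by the array's 75th percentile, was -3.56 for JUB1 (others -5.34 to -5.08), -4.31 for VND7 (others -4.65 to -4.60), -2.38 for ANAC097 (others -2.87 to -2.79), -0.64 for ANAC084 (others -1.10 to -1.07) and 2.40 for ANAC102 (others 2.10 to 2.14). In each of these 5 genes replicate 4 was the highest of the 4. Replicate 1 stood apart for ANAC103 at -3.44 (others -4.26 to -4.16), and replicate 2 for ANAC062 at 0.81 (others 0.53 to 0.57). Replicate 3 stood apart for ANAC011 at -6.46 (others -5.95 to -5.92) and for NARS1 at 0.58 (others -0.04 to 0.06). The 6 of these genes that were called (VND7, ANAC097, ANAC084, ANAC102, ANAC103 and NARS1) passed the test with and without the array in question, while JUB1 and ANAC062 passed without it and not with it, and ANAC011 passed in neither case. With 3 arrays, the wild-type group was not examined in this way.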

How the results depend on the processing

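Of the 41 members called, 15 kept their call under all 16 alternatives, namely ANAC047, ANAC016 and ANAC013, which rose, and VND6, VND7, VND3, XND1, SND2, ANAC099, LOV1, ANAC074, ANAC097, ANAC003, ANAC058 and ANAC069, which fell. The number of other calls moved with the scaling. The 7 spike-in controls used were higher in 35S:MYB106VP16 by a median of 0.56 on the log2 scale, with a range of 0.20 to 0.88. The sign of a change near 0 with this scaling is therefore uncertain. Scaling by these controls moved the median of all genes to -0.54, with 1244 genes higher and 13206 lower, and 3 members higher and 49 lower (family median -0.57). The series table's constants moved the median of all genes to 0.23, with 7306 genes higher and 2277 lower, and 24 members higher and 12 lower (family median 0.21). Median scaling moved it to 0.14, with 24 members higher and 19 lower (family median 0.11). The share of all calls that were higher was 53.2% as reported, 66.6% with median scaling, 76.2% with the series table and 8.61% with spike-in scaling, and that of the members' calls was 48.8%, 55.8%, 66.7% and 5.77%.

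With spike-in scaling the log2 change turned negative for ANAC019 (-0.084), ANAC032 (-0.13), ANAC055 (-0.54), ANAC082 (-0.49), ANAC046 (-0.49), ANAC014 (-0.56), ANAC017 (-0.24), ANAC053 (-0.052), ANAC060 (-0.51), ANAC078 (-0.43), ANAC091 (-0.53), NAC1 (-0.12), ANAC041 (-0.36), ANAC050 (-0.20), ANAC052 (-0.37), ANAC084 (-0.18), ANAC096 (-0.47), ANAC086 (-0.53), VNI2 (-0.13), NARS1 (-0.006), and, with no call in either setting, ATAF2 (-0.26), RD26 (-0.39), ANAC068 (-0.37), CUC1 (-0.21) and ANAC045 (-0.28). The mean over probes turned ANAC017 to -0.13. Leaving out 1 array gave 13 (without wild type replicate 3) to 22 members higher and 19 to 26 lower. Of 1229 results for single genes under an alternative, 66 lost and 52 gained a call with the sign kept. A further 21 turned in sign and were called in either setting. The cause of these changes was not tested.

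No label says that replicate numbers pair the samples. The deviations of same-numbered arrays correlated at 0.18, -0.03 and -0.08, beside -0.31 to 0.17 for differently numbered arrays. So few correlations cannot exclude pairing. With a replicate block, which drops the 35S:MYB106VP16 array that has no wild-type partner from the estimate, 14 members were higher and 26 lower, and 4596 and 4470 of all genes, and 3 root cap factors were called lower, BRN1 (-0.72), BRN2 (-0.65) and SMB (-0.44). Signal over background limited the 18 members with a probe that were not tested.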
